A study of Mus musculus with 4 samples.

Results

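The secreted inhibitors of Wnt signalling were followed as 10 genes: the secreted Frizzled-related proteins Sfrp1, Sfrp2, Sfrp4, Sfrp5 and Frzb, the Wnt inhibitory factor Wif1, the Dickkopf proteins Dkk1, Dkk2 and Dkk3, and sclerostin, Sost. Their probes were those that the array files name for these genes, 10 of 55681 non-control probes, with 1 probe for each gene and 1 spot for each probe. Of the 10 genes, 8 were well above background on all 4 arrays and entered a fit of 24058 genes, while Dkk1 and Sost were above background on none. RNA came from mouse primary osteoblasts kept in 10% serum for 72 h with BMP2 (200 ng/ml) and LOXL2 (4 µg/ml) together, with BMP2 alone, with LOXL2 alone, or with neither, and each treatment was hybridised to 1 single-colour array. The labels call the cells osteoblasts on both arrays with BMP2 and pre-osteoblasts on both without, and the strain, age and number of animals are not given in the sources used here. The design text names regulators of BMP2-driven osteoblast differentiation as the subject. BMP2 is a bone morphogenetic protein, and LOXL2 is a lysyl oxidase that acts on collagen outside the cell.

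Wnt ligands bind Frizzled receptors together with the co-receptors Lrp5 and Lrp6 and thereby stabilise beta-catenin, which acts with Tcf and Lef factors in the nucleus. The Frizzled-related proteins and Wif1 bind the ligands themselves, whereas Dkk1, Dkk2 and sclerostin occupy the co-receptors. Dkk3 is a divergent family member that does not act as a typical co-receptor antagonist. In bone, Wnt signalling favours osteoblast formation, and sclerostin is best known as a product of osteocytes.

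The values of a gene rest on a single 60-base probe, so the probes of the 5 genes called with BMP2 are shown by their first 30 bases, in lower case, 5′ to 3′.
Sfrp2 probe: tcggcatctaagtcttcaaacatttcgttg
Sfrp1 probe: ttaaaatagtcattccggagagtcagggaa
Dkk2 probe: tcagagtgatgatgtcatcagaagtttata
Wif1 probe: ggctgatatctactcttccttttaggtttt
Sfrp4 probe: cacagttgtctgtgtgcatactgtgtaaga
On mm9, the build named in the file headers, the whole probes lie at chr3:83577864-83577923 (plus strand) for Sfrp2, chr8:24559438-24559497 (plus) for Sfrp1, chr3:131842357-131842416 (plus) for Dkk2, chr10:120537079-120537138 (plus) for Wif1 and chr13:19724488-19724547 (plus) for Sfrp4. The probes of the other members lie at chr19:42272509-42272568 (minus) for Sfrp5, chr2:80252582-80252641 (minus) for Frzb, chr19:30621424-30621483 (minus) for Dkk1, chr7:119259556-119259615 (minus) for Dkk3 and chr11:101824067-101824126 (minus) for Sost. No annotation of exons on mm9 was used, so the exon or untranslated region behind a probe was not assigned. The longest run of bases that any of the 10 probes shared with another of them was 9, between Dkk1 and Dkk3, and 0 other probes on the array shared a run of 20 bases with any of them. GC content ran from 35% to 45%.

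The 4 arrays were alike in depth, with 60.4% to 62.2% of non-control spots well above background and a 75th percentile of the signal between 711 and 743. They shared 1 slide and 1 scan time, and a treatment and its position on the slide cannot be told apart. Changes below are on the log2 scale after each array's 75th percentile was subtracted. Over probes printed on 10 spots, the standard deviation of the log2 signal between spots had a median of 0.167 at intensities of 15 to 100, 0.0724 from 100 to 1000 and 0.0519 above 1000. This covers spot error and not variation between cultures. All 9 osteoblast markers were well above background on all 4 arrays, among them Runx2 and Col1a1, the main bone collagen. With BMP2 5 of 9 rose and 0 fell in limma (0 before adjustment), with a median of 1.40. In the same fit 10.3% of all genes rose and 9.95% fell. Ibsp, which encodes bone sialoprotein, rose by 2.53 and the transcription factor Sp7 by 2.23. Spp1 (0.77), Runx2 (0.076, its 3 probes ran to 0.73), Col1a1 (-0.064) and Col1a2 (-0.12) were not called. The sum of the 9, in units of the array's 75th percentile, was 1075 with both proteins and 1127 with BMP2. It was 1112 with LOXL2 and 1107 untreated. Without Col1a2, the brightest, it was 462 and 461 with BMP2 present, against 420 and 414 without it. Chondrocyte markers were present as well, and 10 of 10 rose with BMP2. Their summed signal, in units of the array's 75th percentile, was 383 with both proteins and 251 with BMP2. It was 64.7 with LOXL2 and 55.7 untreated. Matn1 was the marker below background on both arrays without BMP2. It entered the fit only through the arrays with BMP2, which fixed the direction of its change. Among tendon and fibroblast markers 6 of 10 fell and 2 rose. Their sum was 219 with both proteins and 208 with BMP2, against 305 with LOXL2 and 283 untreated, but without S100a4, the brightest, it was 112 and 117 against 124 and 120. Among leukocyte markers 4 of 11 fell and 0 rose in limma (0 before adjustment). The sum of the 11 was 31.7 and 33.5 with BMP2 present, against 40.9 and 39.4 without it. Most of this sum came from Itgam, the brightest, which was not called and whose 3 probes ran from -0.28 to 0.11. Without Itgam the sum was 9.72 and 10.15 against 12.06 and 13.04. Among endothelial markers 2 of 4 tested fell and 0 rose in limma (0 before adjustment). Their sums were 29.7 and 31.1 with BMP2 present, against 30.7 and 31.7 without it, nearly all of it from Kdr. Among skeletal muscle markers 1 of 5 tested fell, Acta1 by 1.21, and 0 rose in limma (1 before adjustment). Their sums were 9.69 and 10.3 with BMP2 present, against 22.3 and 23.4 without it. Without Acta1, the brightest, they were 0.18 and 0.16 against 0.16 and 0.17. In RNA from a whole culture, fewer cells of a type and less RNA per cell cannot be told apart, and the part of any of these cell types in the results below was not tested.

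Among the 8 genes tested, BMP2 lowered Sfrp2, Sfrp1 and Dkk2 and raised Wif1 and Sfrp4, while Frzb, Sfrp5 and Dkk3 did not pass the test. Thus 5 of 8 were called, 2 up and 3 down, at an adjusted p under 0.05 in limma's additive fit of BMP2 and LOXL2 over all 4 arrays. In the same fit 20.3% of all genes were called, 10.3% up and 9.95% down. The median change of the 8 genes was 0.19, beside 0.017 for all genes. Of the 8 genes, 3 were at least 2-fold lower and 2 at least 2-fold higher in both pairs of arrays, where 2.74% and 2.06% of all genes were. They are the 5 called genes, and the call rests on the same 4 arrays, so this adds no separate support. The arrays with BMP2 and those without did not overlap for 7 of the 8 genes, a pattern that 70.9% of all genes showed. The smallest adjusted p in the fit was 0.0206, which many genes share. With no filter on dim probes, limma called 0 genes at all, with 9258 below 0.05 before adjustment, and the adjusted p of the 5 genes then lay between 0.09 and 0.0927.

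**Figure D1:**
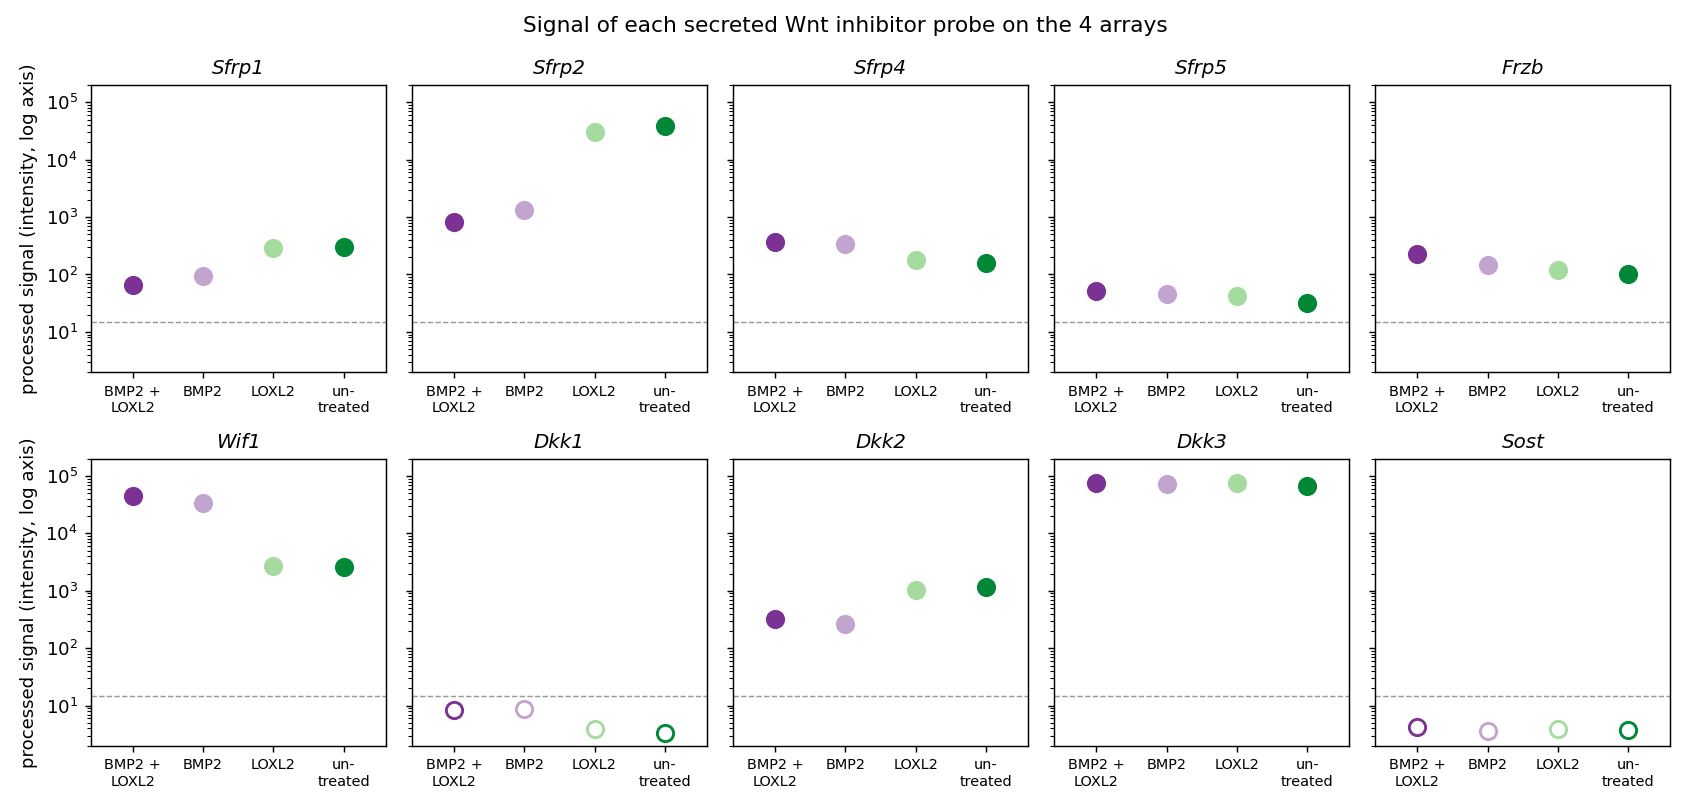
Processed signal (intensity, log axis) of the single probe of each of the 10 inhibitor genes on the arrays with BMP2 and LOXL2, BMP2, LOXL2 and neither protein. Filled points were well above background, open points were not, and the dashed line marks 14.6, the highest of the 4 arrays' lowest signals well above background. Sfrp2 sits at 809 and 1339.5 with BMP2, against 30087 and 38727 without it, and Wif1 shows the opposite order.

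Sfrp2 and Sfrp1, close relatives that bind Wnt ligands through a Frizzled-like cysteine-rich domain, both fell. The Sfrp2 probe had a signal of 809 with both proteins and 1339.5 with BMP2 alone, against 30087 with LOXL2 alone and 38727 untreated. Both arrays with BMP2 were therefore far below both arrays without it. Sfrp2 fell by 5.07 ± 0.12 (log2, ± SE of the fit, adjusted p = 0.0206 in limma), a 33.6-fold difference and ranked 9 among the falls of all genes tested. It was 38.2-fold lower between the arrays that had LOXL2 and 29.5-fold lower between those that lacked it.

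The Sfrp1 probe had a signal of 65.4 with both proteins and 93.1 with BMP2 alone, against 288 with LOXL2 alone and 306 untreated. All 4 values were above background, and those with BMP2 lay below both others. Sfrp1 fell by 1.96 ± 0.14 (adjusted p = 0.0261, limma), which is 3.89-fold. With normexp background correction, which adds an offset of 50 to every signal, the fitted change was -1.30 and stayed past the threshold.

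Sfrp5, which belongs to the same subgroup as Sfrp1 and Sfrp2, was dim. Its signal was 50.7 with both proteins and 46.4 with BMP2 alone, against 42.1 with LOXL2 alone and 32.2 untreated. The fitted BMP2 change was 0.36 (95% interval 0.037 to 0.69, adjusted p = 0.0995, limma). At this brightness spot error alone gives a difference between 2 arrays a standard deviation of 0.236, beside differences of 0.23 with LOXL2 and 0.50 without it. The signs thus differ within the subgroup, and Sfrp5 was not called.

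Sfrp4 and Frzb form the other subgroup of Frizzled-related proteins, and both read higher on the arrays with BMP2. Sfrp4, whose loss in humans thins cortical bone, had a signal of 365 with both proteins and 338 with BMP2 alone, against 176 with LOXL2 alone and 156 untreated. The values with BMP2 were all above those without. Sfrp4 rose by 1.05 ± 0.06 (adjusted p = 0.022, limma), or 2.07-fold, with near-equal differences of 1.01 with LOXL2 and 1.09 without it. With normexp background correction the fitted change was smaller, at 0.85, and stayed past the threshold.

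Frzb, first known from developing cartilage, had a signal of 231 with both proteins and 146 with BMP2 alone, against 121 with LOXL2 alone and 104 untreated. The array with both proteins stood highest, and the step from the LOXL2 array to the BMP2 array was small. The fitted BMP2 change was 0.68 (95% interval 0.21 to 1.15, adjusted p = 0.0699, limma), so Frzb was not called. It passed in 3 of the 8 other settings, at an adjusted p = 0.0485 when only genes above background on all 4 arrays were kept, 0.0171 with normexp and 0.00268 with eBayes trend and robust settings. Its adjusted p over all 8 ran from 0.00268 to 0.162.

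Wif1, which binds Wnt ligands through a domain of its own kind, gave the strongest rise of the group. Its signal was 45553 with both proteins and 33953 with BMP2 alone, against 2714 with LOXL2 alone and 2592 untreated. Both arrays without BMP2 were nearly equal, and both with it were more than 10 times brighter. Wif1 rose by 3.86 ± 0.12 (adjusted p = 0.0206, limma), a 14.5-fold difference, and ranked 21 among the rises of all genes. The difference was 16.4-fold between the arrays with LOXL2 and 12.8-fold between those without.

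Among the Dickkopf genes the outcome differed from gene to gene. Dkk2, a ligand of the Lrp5 and Lrp6 co-receptors, had a signal of 324 with both proteins and 264 with BMP2 alone, against 1014 with LOXL2 alone and 1157 untreated. The arrays with BMP2 lay below the others, without overlap. Dkk2 fell by 1.92 ± 0.15 (adjusted p = 0.0273, limma), or 3.79-fold.

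Dkk3 was bright on every array, at 74967 with both proteins and 72578 with BMP2 alone, against 74196 with LOXL2 alone and 67559 untreated. The groups overlapped. The fitted BMP2 change was 0.025 (95% interval -0.18 to 0.23, adjusted p = 0.777, limma), so a 2-fold change in either direction lies outside the interval. The sign turned to -0.14 with quantile normalization. No spot was saturated on any array.

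Dkk1, the best studied co-receptor antagonist of the family, gave 8.46 with both proteins and 8.72 with BMP2 alone, against 3.97 with LOXL2 alone and 3.37 untreated. None of the 4 was well above background, and the lowest signals that were stood at 14.6, 14.6, 12.9 and 13.9 on the same arrays. Sost gave 4.27 with both proteins and 3.57 with BMP2 alone, against 3.98 with LOXL2 alone and 3.77 untreated, also not well above background. No fold is given for these 2 genes, and the arrays bound their signal without showing that the transcripts were absent. Of the 6 osteocyte markers, Dmp1 was above background on 1 array, and 5 were above it on all 4 by the probe used. Fgf23 and Ptprz1 each also had a probe that did not pass the background filter. Of the 5 tested, Ptprz1 rose and Pdpn fell.

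**Figure D2:**
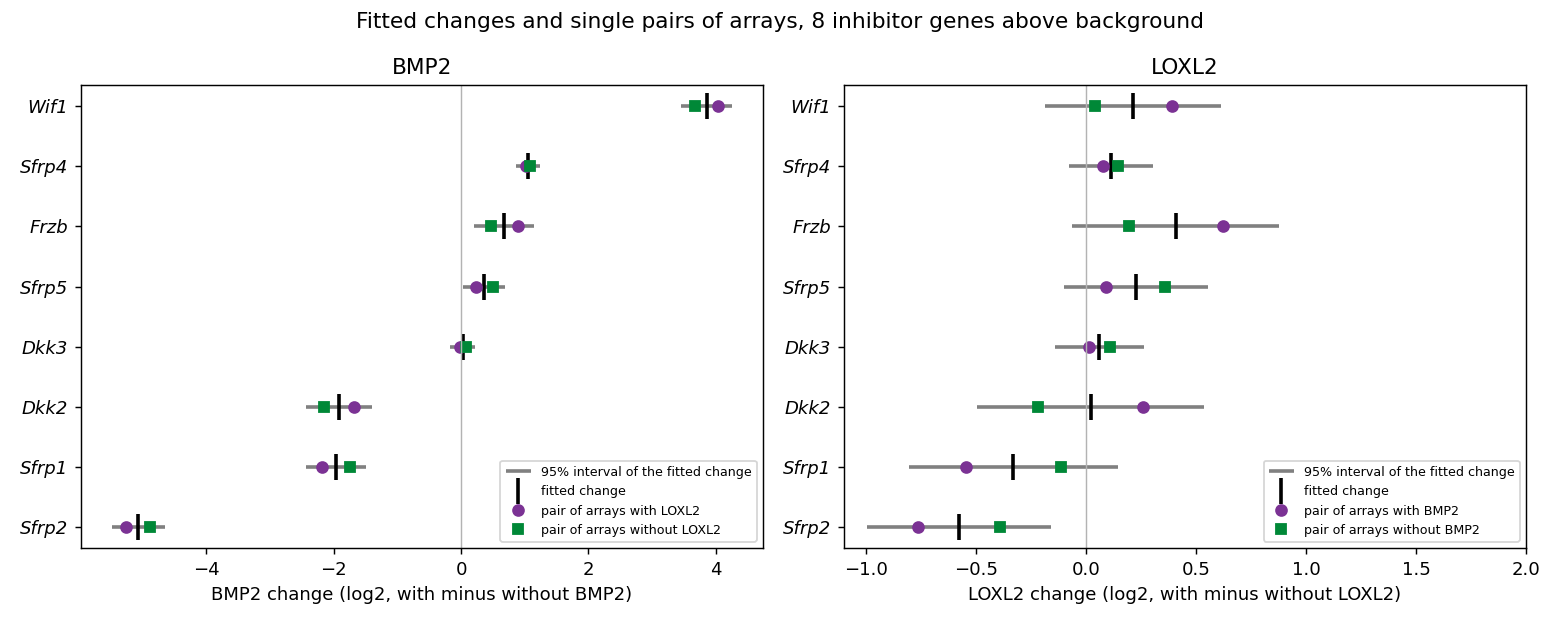
Fitted change with its 95% interval (bar and grey line) and the difference within each pair of arrays (points) for the 8 inhibitor genes above background, for BMP2 (left) and LOXL2 (right), on log2 scales of different width. For BMP2, both pairs stand on the same side of 0 and well away from it for Sfrp2, Sfrp1, Dkk2, Sfrp4 and Wif1. Of these genes, Sfrp4 has its pairs closest together and Dkk2 furthest apart. The LOXL2 points run from -0.76 (Sfrp2) to 0.62 (Frzb).

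Addition of LOXL2 was compared over the same arrays. None of the 8 inhibitor genes passed the test for LOXL2, and of all genes 0% were called in limma (1487 of 24058, and 1 of the 8, were below 0.05 before adjustment; the smallest adjusted p was 0.48). With eBayes trend and robust settings 14 genes passed, and 0 of them were inhibitor genes. The change nearest to the threshold was that of Sfrp2, at -0.58 (95% interval -0.99 to -0.16, unadjusted p = 0.0232 and adjusted p = 0.789, limma). Sfrp2 was lower with LOXL2 in both pairs, by 0.76 on the log2 scale with BMP2 (809 against 1339.5) and by 0.39 without it (30087 against 38727).

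Frzb differed by 0.62 with LOXL2 in the presence of BMP2 (231 against 146) and by 0.19 in its absence (121 against 104). Its fitted LOXL2 change was 0.41 (adjusted p = 0.789, limma). Sfrp1 differed by -0.55 with BMP2 (65.4 against 93.1) and by -0.11 without (288 against 306). Wif1 differed by 0.39 with BMP2 and by 0.04 without. In 7 of 8 genes both LOXL2 differences had the same sign, a pattern that 54.9% of all genes showed, and Dkk2 was the exception. Dkk2 differed by 0.26 with BMP2 (324 against 264) and by -0.22 without (1014 against 1157), and 4.41% of all genes had opposite LOXL2 differences above 0.2 in size.

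Whether the BMP2 response depended on LOXL2 has no test in this design, since the interaction is the only residual. The difference of the BMP2 differences, with minus without LOXL2, was -0.43 for Sfrp1, -0.37 for Sfrp2, -0.072 for Sfrp4, -0.27 for Sfrp5, 0.43 for Frzb, 0.35 for Wif1, 0.47 for Dkk2 and -0.096 for Dkk3. The median size over all genes was 0.108, and every member but Sfrp4 and Dkk3 exceeded it. None of the 8 reached 0.5, which 9.24% of all genes did. With 8 genes, a count of 0 is near that share, and Dkk2 lay just under the limit. For the 5 genes called with BMP2, these differences were smaller than the BMP2 change. That follows from the call, since this difference is the residual that the change is judged against.

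The rest of the Wnt pathway was read from lists of 80 other genes, of which 71 were tested. In limma 11 rose and 17 fell, with a median of 0.012. Among these calls, Draxin, Lgr6, Shisa3 and Wnt2 were below background on both arrays of their low side. They passed the background filter only through the arrays where they read high, which fixed their direction. Over all genes 20.3% were called, 10.3% up and 9.95% down. Other antagonists were split, with 2 rising and 4 falling among 10 tested. Sostdc1, which also antagonises BMPs, fell by 3.83 (its 2 probes ran from -3.83 to -2.97), and the binding protein Igfbp4 fell by 1.14. Shisa3, which retains Frizzled receptors inside the cell, was below background with BMP2 and at least 1.97-fold lower. The Lrp6-binding protein Draxin was below background without BMP2 and at least 1.98-fold higher by the probe that passed the filter. The other Draxin probe, brighter on average, was above background on only 1 array. Kremen1, the Dickkopf co-receptor, rose by 0.46 (its 2 probes ran from 0.46 to 0.73). Limma adjusted p for Sostdc1, Igfbp4 and Kremen1 ran from 0.0219 to 0.0396. None is given for Shisa3 and Draxin, whose low side lay below background.

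Of 14 Wnt ligands tested, 2 rose and 4 fell, where 10.3% of all genes rose and 9.95% fell. Wnt4 rose by 2.43 (its 2 probes ran from 1.80 to 2.43) and Wnt10b by 1.35. Wnt10a fell by 1.51 and Wnt5a by 0.83, while Wnt2, below background with BMP2, was at least 3.64-fold lower. Of 16 receptors 3 rose and 4 fell, with Fzd9 up by 1.84, Fzd5 by 1.11 (its 2 probes ran from 0.58 to 1.11) and Fzd3 by 0.62. The receptor Fzd2 fell by 1.14, the Wnt5a receptor Ror1 by 1.07 and the co-receptor Lrp6 by 0.60 (its 2 probes ran from -0.60 to -0.40).

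In the R-spondin axis, which raises the cell's sensitivity to Wnt, 2 of 8 genes rose and 2 fell. The receptor Lgr5 fell by 6.42 and the ligand Rspo2 by 0.49. The receptor Lgr4 rose by 0.99, and Lgr6 was below background without BMP2 and at least 13.8-fold higher with it. Lgr5 and Lgr6 each also had a probe that did not pass the background filter. Of 17 intracellular components 2 rose and 0 fell in limma (0 before adjustment), and the 2 were the nuclear effectors Lef1, with 2.46, and Tcf7, with 1.99 (probes from 1.99 to 2.45). The share of these 17 that rose was near the 10.3% of all genes. Of 6 feedback targets tested, 0 rose (0 before adjustment) and 3 fell in limma, where 9.95% of all genes fell. Nkd2, a Dishevelled-binding inhibitor, fell by 0.96, its relative Nkd1 by 0.74, and Axin2, the scaffold that beta-catenin signalling induces, by 0.64. Each of the 3 had 2 probes, which ran from -0.96 to -0.88 for Nkd2, -0.74 to -0.54 for Nkd1 and -0.64 to -0.46 for Axin2. The median of these 6 was -0.52, beside 0.017 for all genes.

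**Figure D3:**
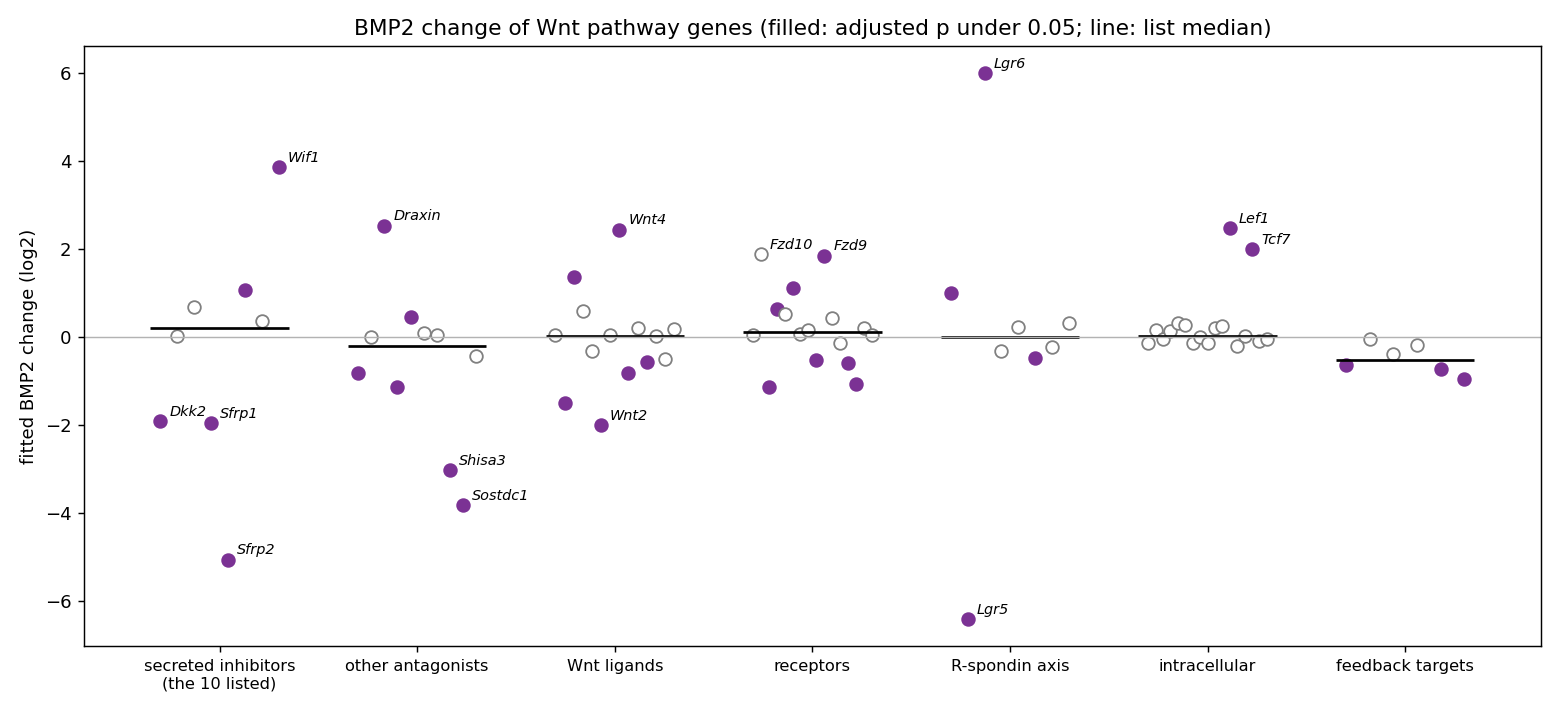
Fitted BMP2 change (log2) of each tested gene in 7 Wnt lists. Filled points passed an adjusted p under 0.05, lines are list medians, and gene names mark changes beyond 1.7, including Fzd10, which did not pass. Sfrp2 and Wif1 lie at the ends of the inhibitor list, and all 3 filled feedback targets lie below 0.

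Genes with the most similar profile were sought for Wif1 and Sfrp2, the members with the largest rise and fall, among 15395 named genes above background on all 4 arrays. Likeness was the Euclidean distance between the 4 centred log2 values. Nearest to Wif1 were Hey1, a transcriptional repressor, at 0.16, osteocalcin, Bglap, at 0.27, and the serine protease inhibitor Serpinb2 at 0.31. Bglap differs little in sequence from its paralogs, so its probe may read them too. Nearest to Sfrp2 were the retinoic acid binding protein Crabp1 at 0.043, the carboxypeptidase Cpb1 at 0.37 and the myosin heavy chain Myh1 at 0.40. Crabp1 followed Sfrp2 on each step, with BMP2 differences of -5.24 with LOXL2 and -4.94 without, beside -5.25 and -4.88 for Sfrp2. A profile of 4 arrays from 4 treatments is a description only.

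RefSeq promoter windows (GRCm38.p6) were at hand for 7 of the 10 genes, and those of the 3 called genes among them are shown because Sfrp2 and Dkk2 fell together while Wif1 rose. Each gives the 250 bases before the start of transcription, 5′ to 3′ on the gene's strand, with matches to the searched motifs in capitals.
Sfrp2, chr3:83766071-83766320, plus strand: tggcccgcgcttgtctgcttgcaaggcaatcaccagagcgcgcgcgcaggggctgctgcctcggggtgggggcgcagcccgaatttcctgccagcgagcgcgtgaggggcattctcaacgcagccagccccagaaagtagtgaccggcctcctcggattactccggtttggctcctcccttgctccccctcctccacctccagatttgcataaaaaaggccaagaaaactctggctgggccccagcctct
Dkk2, chr3:132085042-132085291, plus strand: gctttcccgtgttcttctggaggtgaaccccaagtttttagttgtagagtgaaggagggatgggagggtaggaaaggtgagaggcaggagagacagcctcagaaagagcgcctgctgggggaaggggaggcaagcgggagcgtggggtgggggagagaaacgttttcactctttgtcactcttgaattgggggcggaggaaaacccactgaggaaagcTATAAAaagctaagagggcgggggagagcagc
Wif1, chr10:121033754-121034003, plus strand: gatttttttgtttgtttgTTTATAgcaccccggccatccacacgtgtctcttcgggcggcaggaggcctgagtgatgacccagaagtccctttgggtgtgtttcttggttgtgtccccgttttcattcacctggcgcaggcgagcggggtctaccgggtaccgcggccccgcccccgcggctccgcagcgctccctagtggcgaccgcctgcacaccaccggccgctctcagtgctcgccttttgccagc
The motifs were searched on both strands: the GC-rich SMAD element GGCGCC, the RUNX core TGTGGT, the TCF/LEF core CTTTGAT, the GLI site GACCACCCA and the TATA box TATAAA. Of all 32851 windows of this length, 9.59%, 14.05%, 3.21%, 0.23% and 12.37% held them, in that order. The Dkk2 window held a TATA box that begins 32 bases before the start, and the Wif1 window held the same letters on the opposite strand, 232 bases before it. The Sfrp2 window held none of the 5. Among the other members, Sfrp5 and Dkk1 each held 1 RUNX core and Dkk1 a TATA box, while Frzb and Sost held none of the 5. These are matches of letters, and no binding was measured.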

How the data were processed

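Single-colour Agilent arrays of 4 treatments, 1 each, were used. The authors made the deposited spot intensity with Agilent Feature Extraction 10.7.3.1, as the submitters' processing notes state. According to the headers, local background was subtracted, spatial trends were removed, and dim signals received surrogate values; the deposited intensity has no scaling between arrays, per the file headers. The deposited values per probe equalled the mean intensity of a probe's spots within 0.1% for 99.5% of probes on each array and served as an alternative.

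After log2 transformation, each array's 75th percentile over 59305 non-control spots was subtracted. Outlier spots (109 to 144 per array, none of a member) were left out, spots of a probe were averaged, and probes well above background on at least 2 arrays were kept. Accessions gave current symbols for 26762 probes through a RefSeq table of GRCm38.p6, and 28919 kept the file's name. The brightest probe stood for a gene. BMP2 and LOXL2 were fitted as additive terms with limma 3.58.1 (R 4.3.3), two-sided, with Benjamini-Hochberg adjustment over 24058 genes. To the 1 residual degree of freedom, which is the interaction, eBayes added 1.72. Nothing says that the cultures were separate preparations, so the p-values may measure technical spread. Differences within a pair of arrays have no test. Where one side was dim on both its arrays, it was set at the lowest signal well above background there, or at its own value if higher, and the fold is written as at least that size.

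The members and lists were chosen with earlier results of these data known. From each other Wnt list, up to 3 called genes in each direction with the largest change are named, and for the 2 extreme members the 3 nearest profiles. The 8 alternatives changed the filter (2), the background correction, the scaling (2), the variance model, the unit of the fit and the source of values. With 4 arrays, precision is limited by their number.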

Additional observations from a re-analysis of the deposited data

Results flagged for a closer look

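The response of Dkk2 to LOXL2 went in opposite directions in the 2 pairs of arrays. With BMP2 present, Dkk2 differed by 0.26 on the log2 scale (324 with both proteins against 264 with BMP2), and without BMP2 by -0.22 (1014 with LOXL2 against 1157 untreated). The difference between the pairs was not tested, because each treatment has 1 array. Spot error gives a difference between 2 arrays a standard deviation of 0.102 at intensities of 100 to 1000 and 0.0735 above 1000. Opposite signs with both sizes above 0.2 were found for 4.41% of all genes.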

How the results depend on the processing

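No paired analysis was possible because each treatment had 1 array, and leaving out an array leaves no residual degree of freedom, so the pairs of arrays were given instead. In limma, BMP2 changed 4874 genes, 5 inhibitor genes and 28 other Wnt genes, and LOXL2 changed 0 genes (1487 at an unadjusted p under 0.05). With no filter on dim probes the BMP2 counts were 0, 0 and 0 (9258 genes and 7 inhibitor genes at an unadjusted p under 0.05); the fitted changes were the same, and more genes, 35080, were tested. With normexp 9076 genes changed with BMP2. With eBayes trend and robust settings it was 10378 genes and 49 other Wnt genes, and LOXL2 changed 14 genes; the cause was not tested. In each of the other 7 settings 5 or 6 inhibitor genes passed for BMP2, and in all 8 settings 0 did for LOXL2 (1 to 3 before adjustment). The sign of Dkk3 with BMP2 turned with quantile normalization (-0.14) and in the pair of arrays with LOXL2 (-0.023), and that of Dkk2 with LOXL2 turned in the pair without BMP2 (-0.22). Over the 8 settings the BMP2 change ran from -5.14 to -4.99 for Sfrp2, from -1.97 to -1.30 for Sfrp1, from -1.93 to -1.73 for Dkk2, from 3.77 to 3.91 for Wif1 and from 0.85 to 1.10 for Sfrp4. The share of BMP2 calls that were rises was 50.9%, against 60.6% under median centring and 47% under quantile normalization. Low signal over background limits Sfrp5, Sfrp1 and Frzb, and leaves Dkk1 and Sost without a value.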
